A study of Homo sapiens with 8 samples.

Results

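The genes described here encode 10 proteoglycan core proteins: the granule proteoglycan serglycin (SRGN), the 4 syndecans (SDC1, SDC2, SDC3 and SDC4), glypican 1 (GPC1), CSPG4, versican (VCAN), biglycan (BGN) and decorin (DCN). They were chosen by symbol from the 54174 symbols of the expression table; the rule uses no measured value, but it was written with earlier results of these data known. Of the 10, 9 had a value in every library and passed the filter for testing (a mean log2 value of at least 1), among 9016 tested genes; DCN did not. The table holds RNA sequencing of 143B cells, an established line of human osteosarcoma, collected 48 h after transient transfection with a plasmid. The control group consisted of 4 libraries from cells given the vector plasmid, and the knockout group of 4 libraries from cells given a plasmid labelled for NELL1 knockout. Both groups therefore underwent transfection, and no untransfected cells were analysed here. The labels do not say whether the knockout cells were selected or cloned after the plasmid was given, and the series text calls the libraries biological replicates without saying how they were separated.

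A proteoglycan is a core protein to which long sulfated sugar chains, the glycosaminoglycans heparan sulfate or chondroitin/dermatan sulfate, are attached at serine residues. Syndecans cross the plasma membrane and glypicans are tethered to it by a lipid anchor; through their heparan sulfate chains they hold growth factors such as FGF2 and VEGFA near their receptors. Serglycin is stored in secretory granules, mostly in blood cells but also in some tumour cells, while versican, biglycan and decorin are laid down in the extracellular matrix. The series title places NELL1, a secreted matrix glycoprotein, in the regulation of the matrisome, and the question asked here is which core protein genes differed between the groups.

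All values are log2 values as deposited, already quantile normalized, with base 2 inferred from their range; the unit before the logarithm is not given in the sources used here. Levels were therefore compared for each gene between libraries. The exceptions are the summed levels of the marker lists and the share of 1 gene in them. These set genes side by side and have no clear meaning without the unit. Each library held values for 14911 to 15171 genes, and read totals are unknown. The targeted gene gave no check of the labels: NELL1 lay between -6.97 and -4.53 in the controls and between -6.96 and -4.82 in the 3 knockout libraries with a value. The knockout libraries stood apart in pairs. The SD across tested genes of the difference between 2 libraries was 0.12 to 0.13 inside the pairs 1-2 and 3-4, but 0.46 to 0.50 between these pairs, against 0.36 to 0.45 between a control and a knockout library. Each result below is therefore also given for replicates 1 and 2 and for replicates 3 and 4. Of the osteoblast and osteosarcoma markers, SPP1 and VIM passed the filter, RUNX2, ALPL and COL1A1 were measured below it, and SP7 and IBSP were blank in every library.

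Of the 9 tested core protein genes, 1 rose and 2 fell in the knockout libraries. SRGN rose 2.57-fold (95% interval 1.82 to 3.62), SDC4 fell 1.69-fold (1.37 to 2.10) and VCAN fell 1.43-fold (1.19 to 1.72). The other 6 genes did not pass the test (limma with Benjamini-Hochberg adjustment over all 9016 genes, adjusted p under 0.05). The same threshold was passed by 13.1% of all tested genes, 7.02% upward and 6.1% downward, so 3 of 9 is a count to be read against a common background of change. The 2 groups were without overlap for these 3 members and for none of the other 6, against 22.9% of all tested genes. The median log2 difference over the 9 members was -0.06, beside 0.01 over all tested genes, with 3 members above 0 and 6 below; it was -0.10 within replicates 1 and 2 and 0.03 within replicates 3 and 4. In such bulk RNA, fewer cells expressing a gene and less RNA per cell cannot be told apart.

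**Figure D1:**
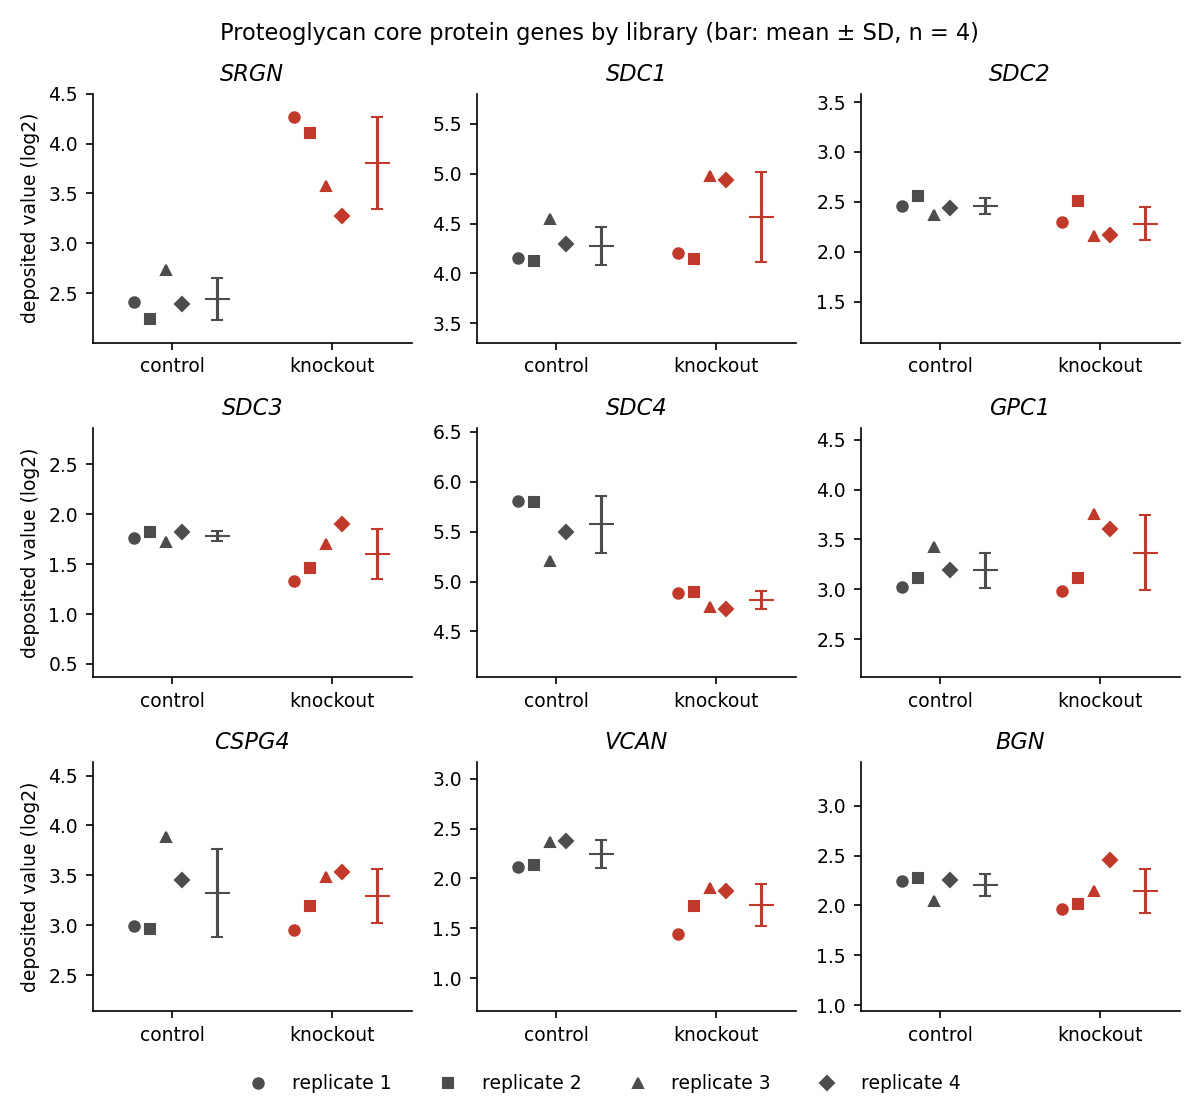
Deposited log2 value (vertical axis) of the 9 tested proteoglycan genes in each control and knockout library, with marker shapes for replicate numbers and bars for the mean ± SD (n = 4); every panel spans the same number of log2 units. All knockout points lie above all control points for SRGN and below them for SDC4 and VCAN, and the groups overlap for the other 6 genes.

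SRGN encodes serglycin, whose core carries a run of serine-glycine repeats to which many chains attach, and which binds granule proteases, chemokines and the hyaluronan receptor CD44. In control libraries 1 to 4 its log2 value was 2.41, 2.24, 2.73 and 2.39, and it was 4.27, 4.11, 3.58 and 3.27 in knockout libraries 1 to 4. Every knockout library was above every control, with a gap of 0.54 between the groups, and knockout libraries 1 and 2 were the highest. The means were 2.44 ± 0.21 and 3.81 ± 0.46 (SD, n = 4 each). The log2 difference of 1.36 ± 0.22 (SE; limma adjusted p = 0.00762) exceeded that of 99.9% of the tested genes. It was 1.86 within replicates 1 and 2 and 0.86 within replicates 3 and 4; whether these sizes differ was not tested. When knockout libraries 1 and 2 were averaged into 1 value, and 3 and 4 likewise, SRGN was the one member still called (limma adjusted p = 0.0468), where 1.2% of all genes were.

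Because serglycin is best known from blood cells, markers of such cells were measured beside it. Of 12 leukocyte markers, PTPRC (the pan-leukocyte antigen CD45), CD3E and TYROBP were among those blank in all 8 libraries. The summed linear level of the list was 55.8 to 62.6 in the controls and 49.8 to 61.7 in the knockouts, and CD68, the one marker that passed the filter, made up 93 to 95.6% of it (log2 difference -0.16, limma adjusted p = 0.305). Of 7 mast cell markers, TPSAB1, MS4A2, HDC and CMA1 were blank in all libraries, and KIT was the one marker of the list with a value in every library. KIT made up 97.6 to 100% of the summed level, which was 0.979 to 1.32 in the controls and 1.11 to 1.72 in the knockouts. The 8 endothelial markers summed to 0.776 to 1.30 and 1.27 to 1.48, with none above the filter. The fit without a filter on low values held 5 leukocyte markers, of which 2 were called. LAPTM5 fell by 1.93 and CORO1A rose by 0.86 on the log2 scale (limma adjusted p = 0.0204 and 0.0058). ITGAX (-0.23) and CSF1R (0.26) were not called (limma adjusted p = 0.447 and 0.498). Which cells the SRGN RNA came from was not tested.

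SDC4 encodes syndecan 4, the syndecan found in focal adhesions, where it acts with integrins in binding fibronectin and activates protein kinase C alpha. Control libraries 1 to 4 had log2 values of 5.80, 5.79, 5.20 and 5.49, against 4.89, 4.90, 4.75 and 4.73 in the knockout libraries. All 4 knockout libraries were below all controls, by a gap of 0.30, and the knockout values were closer together (SD 0.09) than the control values (SD 0.29). The mean fell from 5.57 to 4.81, a log2 difference of -0.76 ± 0.14 (SE; limma adjusted p = 0.0110). The difference was -0.91 within replicates 1 and 2 and -0.61 within replicates 3 and 4. Averaging these knockout pairs ended the call (limma adjusted p = 0.0897).

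VCAN encodes versican, a large chondroitin sulfate proteoglycan of the matrix that binds hyaluronan. The log2 values were 2.11, 2.14, 2.36 and 2.38 for control libraries 1 to 4 and 1.45, 1.72, 1.90 and 1.87 in the knockout libraries. The groups were separated by 0.21, with knockout library 1 the lowest. The control mean of 2.25 ± 0.14 and the knockout mean of 1.73 ± 0.21 (SD, n = 4 each) gave a log2 difference of -0.51 ± 0.12 (SE; limma adjusted p = 0.0261). The difference was -0.54 in replicates 1-2 and -0.48 in replicates 3-4. The call was lost with averaged knockout pairs (limma adjusted p = 0.104) and when control library 1, 2 or 4 or knockout library 2 was left out (limma adjusted p = 0.0339 to 0.0865 over the 8 libraries left out in turn).

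**Figure D2:**
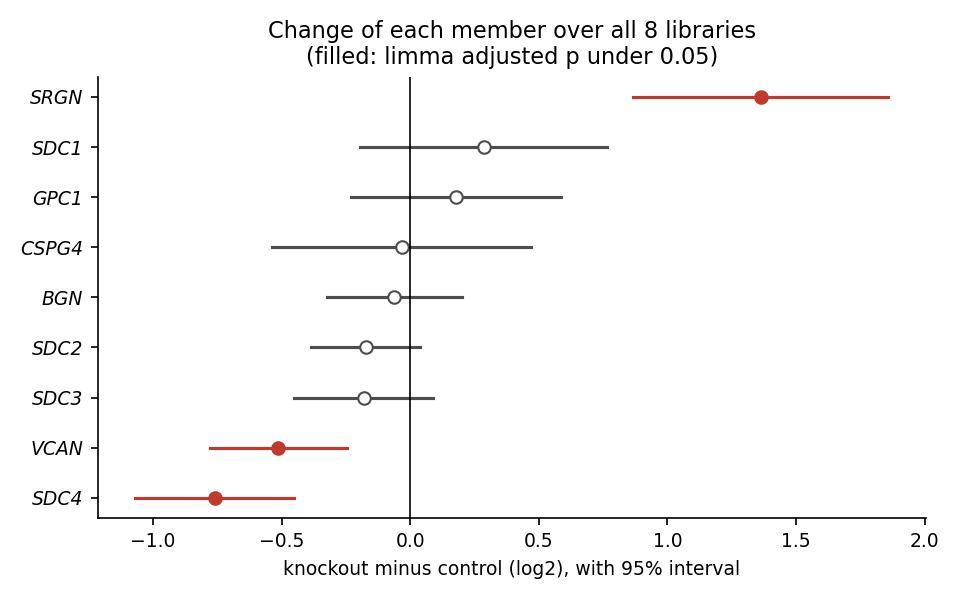
Log2 difference, knockout minus control (horizontal axis), with its 95% interval from limma for the 9 tested proteoglycan genes; filled points passed an adjusted p of 0.05. The intervals of SRGN (0.87 to 1.86), VCAN (-0.78 to -0.25) and SDC4 (-1.07 to -0.45) lie on one side of 0, and those of the other 6 genes include it.

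The promoters of the 2 members that fell are shown because these genes were lower in every knockout library. RefSeq starts (build GRCh38.p14) were found for 7 of the 10 members; SRGN, SDC2 and DCN had no entry. Each sequence is the 250 bases before the annotated start, written 5′ to 3′ on the gene's strand. SDC4 lies on the minus strand (chr20:45348425-45348674) and VCAN on the plus strand (chr5:83471494-83471743). Capitals mark the one match to the NF-kB motif in SDC4 and the one match to the Sp1 motif GGGCGG, on the opposite strand, in VCAN.
SDC4: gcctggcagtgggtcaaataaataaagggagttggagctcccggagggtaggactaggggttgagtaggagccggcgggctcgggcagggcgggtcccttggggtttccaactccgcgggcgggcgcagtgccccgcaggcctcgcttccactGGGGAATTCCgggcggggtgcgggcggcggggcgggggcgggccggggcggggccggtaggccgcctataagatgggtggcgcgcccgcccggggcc
VCAN: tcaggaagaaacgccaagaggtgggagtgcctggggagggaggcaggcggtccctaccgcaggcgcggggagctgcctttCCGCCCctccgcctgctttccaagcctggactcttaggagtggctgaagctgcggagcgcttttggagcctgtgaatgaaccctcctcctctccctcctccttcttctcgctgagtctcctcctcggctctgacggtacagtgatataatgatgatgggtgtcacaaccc
The capitals in SDC4 begin 97 bases before the start, and those in VCAN 170 bases before it. Both strands were searched in each case. A match to the NF-kB motif was found in 9.96% of the 35116 promoter windows of this length, and among the members also in the window of 1 of the 2 SDC1 starts. GGGCGG was found in 42.6% of all windows and in those of all 7 members, with 8 matches in SDC4, none overlapping the NF-kB match, and 1 in VCAN. The AP-1 motif TGANTCA (6.57% of all windows), the cyclic AMP response element TGACGTCA (1.65%) and the TATA box TATAAA (10.7%) had no match in any of these windows. The SDC4 window was 73.6% GC and the VCAN window 60.8%, beside a median of 58% over all windows. A match is a description of the letters and not of a bound factor, and the start used by 143B cells was not measured here.

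The other syndecans did not pass the test. SDC1, the syndecan typical of epithelial and plasma cells, was 4.15, 4.13, 4.54 and 4.29 in control libraries 1 to 4 and 4.21, 4.14, 4.97 and 4.94 in the knockout libraries. Knockout libraries 3 and 4 were above every control, while knockout libraries 1 and 2 lay within the control range. The log2 difference was 0.29 (95% interval -0.19 to 0.77; limma adjusted p = 0.405). It was 0.03 within replicates 1 and 2 (limma adjusted p = 0.598) and 0.54 within replicates 3 and 4 (limma adjusted p = 0.00653), where 59.7% and 33.1% of all genes were called; whether the 2 sets differ was not tested.

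SDC2, a syndecan of mesenchymal cells, was 2.46, 2.56, 2.37 and 2.44 in control libraries 1 to 4 and 2.30, 2.51, 2.15 and 2.16 in the knockout libraries. Knockout library 2 lay within the control range and the other 3 below it. The difference of -0.17 (95% interval -0.39 to 0.04; limma adjusted p = 0.254) had the same sign in all 4 same-numbered pairs, between -0.27 and -0.04. SDC3, best known from nerve and muscle, was 1.76, 1.82, 1.72 and 1.82 in control libraries 1 to 4, the narrowest control spread among the members (SD 0.05). In the knockout libraries it was 1.33, 1.46, 1.71 and 1.90, so libraries 1 and 2 were well below the controls and library 4 was above them. The difference was -0.18 overall (95% interval -0.45 to 0.09; limma adjusted p = 0.352), -0.39 within replicates 1 and 2 (limma adjusted p = 0.00204) and 0.03 within replicates 3 and 4 (limma adjusted p = 0.826).

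GPC1, a glypican that holds heparan sulfate chains at the cell surface and acts as a coreceptor for FGF2, was 3.03, 3.11, 3.43 and 3.19 in control libraries 1 to 4. It was 2.98, 3.12, 3.76 and 3.61 in the knockout libraries, so knockout libraries 3 and 4 were above every control and library 1 was below every control. The difference was 0.18 (95% interval -0.23 to 0.59; limma adjusted p = 0.547). Like SDC1, it was near 0 within replicates 1 and 2 (-0.02) and higher within replicates 3 and 4 (0.37, limma adjusted p = 0.0316).

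CSPG4, a membrane-spanning chondroitin sulfate proteoglycan also known as NG2, was 2.99, 2.97, 3.89 and 3.45 in control libraries 1 to 4 and 2.95, 3.19, 3.48 and 3.53 in the knockout libraries. It had the widest control spread among the members (SD 0.44), and replicates 1 and 2 were lower than replicates 3 and 4 in both groups. The difference was -0.03 (95% interval -0.54 to 0.47; limma adjusted p = 0.937), an interval too wide to show that the groups were alike. With the replicate number as a block, which left SRGN, SDC4 and VCAN called (10.2% of all genes), CSPG4 remained uncalled (limma adjusted p = 0.867).

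BGN and DCN encode small leucine-rich proteoglycans that bind collagen and TGF-beta. BGN was 2.25, 2.27, 2.05 and 2.26 in control libraries 1 to 4 and 1.96, 2.01, 2.14 and 2.46 in the knockout libraries. The groups overlapped, with the lowest values in knockout libraries 1 and 2 and the highest in knockout library 4. The difference was -0.06 (95% interval -0.32 to 0.20; limma adjusted p = 0.758), with -0.27 within replicates 1 and 2 (limma adjusted p = 0.00395) and 0.15 within replicates 3 and 4 (limma adjusted p = 0.406). DCN was blank in 7 libraries and had a value of -7.06 in knockout library 4, near the low end of the table, so it was not tested.

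**Figure D3:**
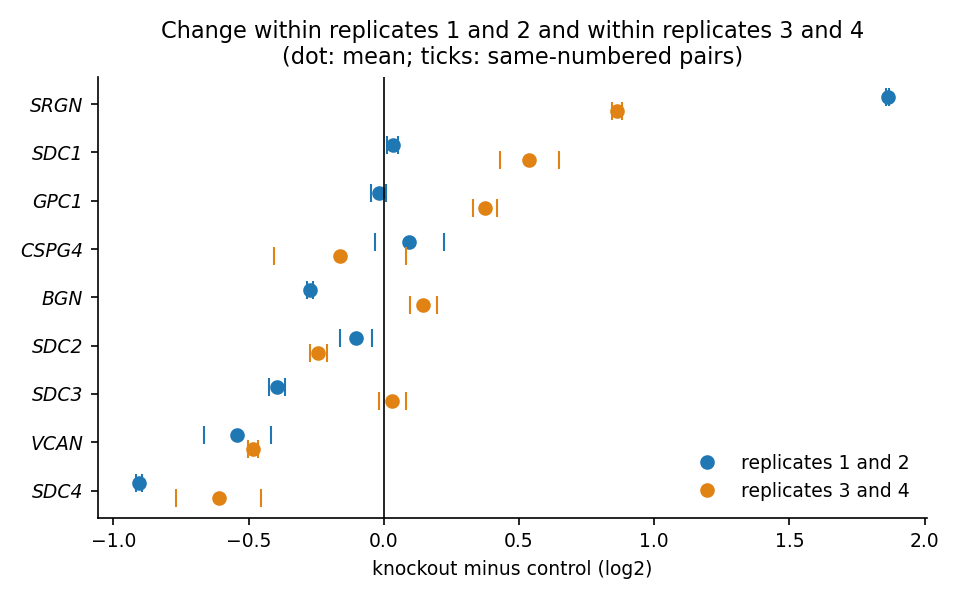
Log2 difference, knockout minus control (horizontal axis), of each tested proteoglycan gene in replicates 1-2 and in replicates 3-4; dots are means and ticks the same-numbered pairs. SRGN, SDC4, VCAN, SDC2 and SDC1 keep their sign in both sets, while SDC3, GPC1, CSPG4 and BGN have opposite signs in the 2 sets.

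The tested genes outside the members whose library-by-library pattern was most like that of each called member were found by the root mean square distance between mean-centred log2 values over the 8 libraries. For SRGN these were MCAM (0.141), KITLG (0.167) and PLK2 (0.195), beside a root mean square of 0.749 for SRGN about its own mean. For SDC4 they were MMP1 (0.0943), OPTN (0.104) and SNX21 (0.105), beside 0.422 for SDC4 itself. For VCAN they included JAG1 (0.0754) and KBTBD2 (0.0836), beside 0.299 for VCAN. The genes named here moved in the direction of their member, which the measure itself favours, and of them KBTBD2 alone was not called (limma adjusted p = 0.0778).

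The wider proteoglycan machinery was described with 5 lists of 152 genes in all, of which 60 passed the filter. Of these, 7 were called (11.7%, beside 13.1% of all tested genes), and all 7 were lower in the knockout libraries. This one-sided count depends on the filter on low values: without it, 11 of 113 genes were called (9.73%, beside 8.3% of all genes), 4 higher and 7 lower. The 4 that rose, named below with their lists, had mean values too low for the main fit. None of the 7 tested genes of the list of other core proteins was called by limma over all 8 libraries (1 at an unadjusted p under 0.05). These genes were CD44, NRP1, APLP2, HSPG2 (perlecan), AGRN (agrin), COL18A1 and ESM1 (endocan). Their differences were all below 0, with a median of -0.38 beside 0.01 over all tested genes. Without the filter the median over 24 genes was -0.003, with GPC4 and CSPG5 at 0.69 each (limma adjusted p = 0.154 and 0.0607) and SPOCK1 called lower (-0.48, limma adjusted p = 0.0220). Within replicates 1 and 2 the median of the 7 genes was -0.43, and ESM1 (0.02) alone was above 0. Within replicates 3 and 4 the median was 0.04, with CD44, NRP1, HSPG2 and AGRN above 0. The 7 genes therefore did not share a sign in either set. COL18A1, the core of a basement membrane heparan sulfate proteoglycan, was called with the replicate block (log2 difference -0.38, limma adjusted p = 0.0337) and not without it (0.165). The other 37 genes of this list were not tested, and 12 of them were blank in every library, among them GPC3, FMOD and OGN.

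Of 18 tested genes for chain linkage and chain synthesis, 3 fell and none rose, with a list median of -0.13. This list also held PAPSS1, a gene for the supply of sulfate rather than for chain synthesis. Without the filter on low values, 2 fell and 1 rose: CHSY3, a chondroitin synthase, rose by 0.56 (limma adjusted p = 0.0126) and PAPSS1 was no longer called (0.0534). CHPF, a chondroitin polymerising factor, was between 3.48 and 3.65 in the controls and between 2.92 and 3.12 in the knockouts, a log2 difference of -0.52 ± 0.07 (SE; limma adjusted p = 0.00552). CSGALNACT2, which adds the N-acetylgalactosamine that starts a chondroitin chain, fell by 0.42 (limma adjusted p = 0.0240). PAPSS1, which makes the sulfate donor used by all sulfotransferases, fell by 0.38 (limma adjusted p = 0.0319). Among the genes of the heparan sulfate polymerase, EXT1 differed by -0.22 and EXT2 by 0.12 (limma adjusted p = 0.0745 and 0.333).

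Of 9 tested genes for chain sulfation and epimerisation, 1 fell and none rose, with a median of -0.13. The median was 0.13 within replicates 1 and 2 and -0.15 within replicates 3 and 4. Over the 19 genes measured without the filter on low values it was 0.11. In that fit HS3ST3B1, a 3-O-sulfotransferase of heparan sulfate, rose by 0.80 on the log2 scale (limma adjusted p = 0.00385), while NDST2 fell. NDST2, an N-deacetylase and N-sulfotransferase of heparan sulfate, was between 1.68 and 1.92 in the controls and between 0.97 and 1.46 in the knockouts (log2 difference -0.56, limma adjusted p = 0.0180). NDST1, of the same family, differed by 0.09 (limma adjusted p = 0.463).

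Of 12 tested sheddases and chain-degrading enzymes, 2 fell and none rose, with a median of -0.08. Without the filter on low values 3 fell and 1 rose. The one that rose was ADAMTS1, a protease that cleaves versican, which was between -0.88 and -0.41 in the controls and between 0.96 and 1.52 in the knockouts (log2 difference 2.03, limma adjusted p = 0.00327). SULF1, the paralogue of SULF2, fell by 1.36 in that fit (limma adjusted p = 0.0416). MMP9, a gelatinase that can be bound by serglycin and can cleave syndecan ectodomains, was between 3.85 and 4.43 in the controls and between 0.98 and 2.53 in the knockouts (log2 difference -2.46, limma adjusted p = 0.00696). It was the one gene of the 5 lists still called with averaged knockout pairs (limma adjusted p = 0.0387). MMP14, a membrane-bound protease that also cleaves syndecan 1, was between 6.08 and 6.63 in the controls and between 4.52 and 5.53 in the knockouts (log2 difference -1.20, limma adjusted p = 0.0180). SULF2, which removes 6-O-sulfates from heparan sulfate outside the cell, differed by -0.98 and was called with the replicate block (limma adjusted p = 0.0313) and not without it (0.0528).

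Of 14 tested ligands and intracellular partners, 1 fell and none rose, with a median of -0.05. Without the filter on low values the one call passed to another gene. FGF1, a heparan sulfate-binding growth factor below the filter, rose by 2.07 (limma adjusted p = 0.0264). VEGFA kept its difference but was no longer called (limma adjusted p = 0.0554). The median was then 0.001. With the filter it was 0.02 within replicates 1 and 2 and negative within replicates 3 and 4. VEGFA, a growth factor with heparan sulfate-binding isoforms, was between 5.09 and 5.16 in the controls and between 3.91 and 4.79 in the knockouts (log2 difference -0.79, limma adjusted p = 0.0336). Genes of proteins that bind the syndecan 4 or other syndecan tails, such as SDCBP (syntenin), PRKCA and GIPC1, differed by -0.14, -0.07 and 0.00 (limma adjusted p = 0.584, 0.736 and 0.979). FGF2 differed by 0.46 (limma adjusted p = 0.414), with 1.08 within replicates 1-2 and -0.15 within replicates 3-4. In the same order the sets gave 0.09 and -0.38 for SDCBP, -0.26 and 0.12 for PRKCA, and 0.03 and -0.03 for GIPC1. Among markers of the line and of stromal cells, VIM (-0.43, limma adjusted p = 0.0425) and PDGFRA (-0.65, limma adjusted p = 0.0440) fell; with the replicate block neither was called (limma adjusted p = 0.0507 and 0.0880). Within replicates 1-2 and 3-4 the differences were -0.46 and -0.58 for CHPF, -0.54 and -0.31 for CSGALNACT2, and -0.32 and -0.43 for PAPSS1. They were -0.30 and -0.82 for NDST2, -1.89 and -3.03 for MMP9, -1.48 and -0.92 for MMP14, and -0.42 and -1.17 for VEGFA. For VIM they were -0.62 and -0.25, and for PDGFRA -1.07 and -0.23. Whether the sets differ was not tested. Of the 7 called genes of the 5 lists, CHPF and MMP9 stayed called whichever library was left out. CSGALNACT2, PAPSS1, NDST2, MMP14 and VEGFA were each lost without control library 1 and without control library 4 (highest limma adjusted p over the 8 omissions 0.0784, 0.103, 0.0630, 0.0602 and 0.0961). The first, second and last of these were also lost without control library 2 or knockout library 3, PAPSS1 and VEGFA without knockout library 4, and VEGFA without control library 3. VIM and PDGFRA were lost in 6 and 5 of the 8 omissions.

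**Figure D4:**
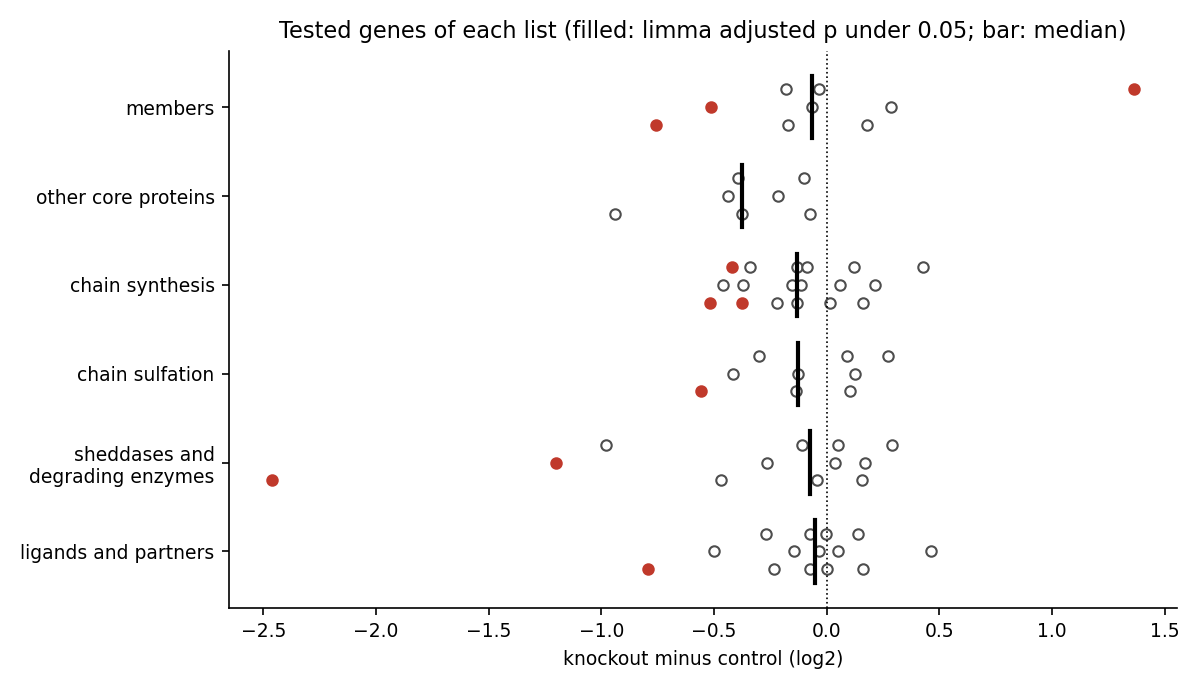
Log2 difference, knockout minus control (horizontal axis), of every tested gene of the proteoglycan members and of 5 lists of related genes; filled points passed a limma adjusted p of 0.05 and the black bar is the list median. SRGN is the one filled point above 0, and the 7 filled points of the 5 lists are all below 0, with MMP9 at -2.46 the farthest; genes under the filter on low values, among them 4 that rose without it, are not drawn.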

How the data were processed

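RNA of 8 libraries of the 143B line was extracted with TRIzol and prepared with a stranded total-RNA kit, per the labels' protocols. The authors deposited 1 table of log2 values per gene symbol and library. Per the submitters' processing notes, bcl2fastq, Partek 7.0 and GRCh38 were used, with no roles given. All libraries share one distribution, so a shift of most genes cannot be seen. Blank cells were treated as missing. The members and lists were chosen with earlier results of these data known.

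Libraries were grouped by their titles and matched to columns by their descriptions. Genes without a blank cell whose mean reached 1 entered a limma 3.58.1 fit (R 4.3.3; lmFit, then eBayes) of knockout minus control, two-sided, with Benjamini-Hochberg adjustment over all 9016 genes; 95% intervals are limma's. The fit was tested on simulated data in which every library was drawn independently. The simulation held no close pairs of libraries, so it cannot show how the p-values behave with the knockout pairs seen here. P-values measure the spread between these libraries, which may be technical, and depth is unknown. Same-numbered libraries deviated together in all 4 pairs (correlations across genes of 0.20 to 0.29). Pairs of unlike number within replicates 1-2 or 3-4 did so too (0.11 to 0.31). Of the 4 controls, 3 correlated best with the knockout library of their own number, but of the 4 knockout libraries 1 did so with its control. Pairing by number was therefore not settled, and a fit with the number as a block was kept as an alternative. Named list genes were those called (or chosen after their values were seen: COL18A1, SULF2, EXT1, EXT2, NDST1, SDCBP, PRKCA, GIPC1, FGF2, LAPTM5, CORO1A, GPC4, CSPG5, SPOCK1, CHSY3, HS3ST3B1, ADAMTS1, SULF1 and FGF1), and named neighbours were the 3 nearest; some items are not reported here. Summed levels add 2 to the power of each log2 value, with blanks left out. Other alternatives were other filters, scalings, a pseudocount of 1, a variance trend, a stricter threshold, averaged pairs, a term for replicates 1-2 against 3-4, each of these sets alone, and leaving out each library.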

Additional observations from a re-analysis of the deposited data

Results flagged for a closer look

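BGN in control library 3 (2.05) stood apart from the other 3 controls (2.25 to 2.27): its gap to the nearest was 0.874 of the range of the group, above Dixon's critical value for 4 samples. This was the one such library among 19 groups of 4 examined, where chance gives about 1 in 20.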

How the results depend on the processing

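The rise of SRGN stayed called in 19 of 20 refits, the fall of SDC4 in 18 of 20 and that of VCAN in 13 of 19; all kept their direction. The count of members called (3 of 9, beside 13.1% of all genes) was 1 with averaged knockout pairs (1.2% of all genes). It was 1 at an adjusted p under 0.01 (3.02%), 5 within replicates 1 and 2 (59.7%) and 5 within replicates 3 and 4 (33.1%). With the pairs averaged in both groups limma called 0 members and 0 of 9016 genes (706 genes and 3 members at an unadjusted p under 0.05), a design of 2 against 2 that leaves few degrees of freedom. The count over all genes (1183) was 108 with averaged knockout pairs, 729 with a mean of at least 3, 272 at the stricter threshold, 2274 with the term for replicate sets, 5380 within replicates 1 and 2, 2987 within replicates 3 and 4, and 391 (without control library 4) to 1353 (without control library 3) when 1 library was left out; it was 444 and 431 without control libraries 1 and 2 and 716 without knockout library 3. The count over the 5 other lists (7) was 1 with averaged knockout pairs, 0 with both groups averaged, 11 without a filter (4 higher, 7 lower), 17 with the set term, 38 and 30 within the sets, 2 at the stricter threshold, and 2 to 8 when 1 library was left out, with 2, 4 and 2 without control libraries 1, 2 and 4. The 38 and 30 were out of 60 tested genes, where 59.7% and 33.1% of all genes were called. Opposite signs to the full comparison were seen for 4 members that were not called: SDC3 (0.0322) and BGN (0.147) within replicates 3 and 4, GPC1 (-0.0189) and CSPG4 (0.0951) within replicates 1 and 2. CSPG4 ranged from -0.152 to 0.155 when 1 library was left out. The causes were not tested. A block for the replicate number, whose pairing was not settled, changed no call of a member. With it 3 members and 924 genes were called, and the count over the 5 lists was 9. Without counts or depth, no detection limit can be given for blank cells.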
